A study of Homo sapiens with 8 samples.

Results

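Transcript levels in HGC27 cells that overexpressed the R273H form of p53 were compared with those in HGC27 cells that overexpressed GFP. All genes that passed a filter on low counts were included, 13213 of the 25435 gene symbols in the table, and the comparison rests on 4 of the 8 libraries of the study, 2 of R273H and 2 of GFP. The other 4 libraries are 2 each of the p53 mutants R248Q and R175H, and they served as further comparison groups. HGC27 is an established line from a human gastric carcinoma, and the labels describe these cells as a line without p53, in every group including GFP. All groups were grown in alpha-MEM and differ, as far as the labels say, in the overexpressed protein alone. The promoter that drove it, the time after its introduction and whether a population is a pool or a clone were not stated in the labels. The libraries of a group carry replicate numbers, but the labels do not say that they came from separate cultures, so p-values measure the spread between these libraries, which may be technical.

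The p53 protein is a transcription factor that binds DNA as a tetramer and, in cells under stress, activates genes of cell cycle arrest, DNA repair and cell death. Missense mutations in its DNA-binding domain are frequent in gastric and other carcinomas and leave a full-length protein that has lost most of this activity. The arginine replaced in R273H is one of the residues that contact DNA, and its exchange for histidine removes that contact while largely sparing the fold. R248Q is a contact mutant too, whereas R175H changes a residue near the bound zinc ion and alters the fold of the domain. Since the cells lack p53 of their own, the comparison with GFP asks what the R273H protein changes by itself.

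Total counts were 11287251 and 11788035 in the R273H libraries, against 9769342 and 8928928 in the GFP libraries, and between 6800463 and 11659301 in those of R248Q and R175H. At these depths 3 counts, taken as the floor of detection, correspond to 0.256 to 0.333 CPM (counts scaled to the library total) in the 4 libraries. Replicates were furthest apart in GFP, with a chi-square per degree of freedom of 1.51 between the R273H libraries and 5.72 between the GFP libraries. Transcript length accounted for 35.3% of the variance of that GFP difference, and GFP replicate 1 was the library with the trend. Most changes called against GFP are therefore also given against GFP replicate 2 alone, where the lone library is assumed to vary like those of the other groups.

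The cells carried few markers of gastric epithelium. Of 11 such genes, 8 had no count in any of the 4 libraries, and CDX2, an intestinal transcription factor, was the best detected with 5.67 and 7.72 CPM in R273H and 6.04 and 7.504 CPM in GFP. Of 21 epithelial junction genes 11 were under 1 CPM in all 4 libraries, and CDH1 and EPCAM had 1 count per library. Others were well detected. TJP1 had 139.3 and 128.9 CPM in R273H and 105.5 and 133.3 CPM in GFP. DSG2 had 131.8 and 133.2 CPM in R273H and 107.0 and 148.3 CPM in GFP. VIM, which encodes the mesenchymal filament protein vimentin, had 5045 and 4997 CPM in R273H and 4912 and 5001 CPM in GFP. Of the 20 EMT regulators and mesenchymal markers listed with it, 4 were under 1 CPM in all 4 libraries, CDH2 and CDH11 among them. The 11 fibroblast and smooth muscle genes summed to 3343 and 3305 CPM in R273H and 3149 and 3454 CPM in GFP, most of it COL3A1. The 9 endothelial genes summed to at most 3.25 CPM and the 10 blood genes to at most 18.2 CPM, led by HBA1, and the defining genes CDH5, KDR, CD3E and HBB were at 0 in all 4 libraries.

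In R273H, 100 genes were called higher than in GFP, 0.757% of the genes tested, and 33 were called lower, 0.25%. A gene was called at an adjusted p below 0.05 by the quasi-likelihood test of edgeR after Benjamini-Hochberg adjustment, fitted to all 8 libraries with a mean per group. For all 133 called genes, 1.01% of those tested, both R273H libraries lay outside the range of the GFP libraries, as was the case for 5216 of all 13213 genes. Where groups of a called gene are described below as separate, this therefore adds nothing to its call. The median log2 fold change over all tested genes was -0.0015. Against GFP replicate 2 alone 140 genes (1.06%) were called higher and 60 (0.454%) lower, among them 82 of the 100 and 27 of the 33. Without R273H replicate 1 there were 1 higher and 6 lower, without R273H replicate 2 16 and 7, without GFP replicate 2 1328 and 925, without any 1 library of R248Q or R175H 42 to 43 and 20, and in a fit to the 4 libraries alone 1 (0.00757%) and 5 (0.0378%). With a length offset there were 201 higher (1.52%) and 128 lower (0.969%), and with the offset and without GFP replicate 1, 183 (1.38%) and 93 (0.704%).

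**Figure D1:**
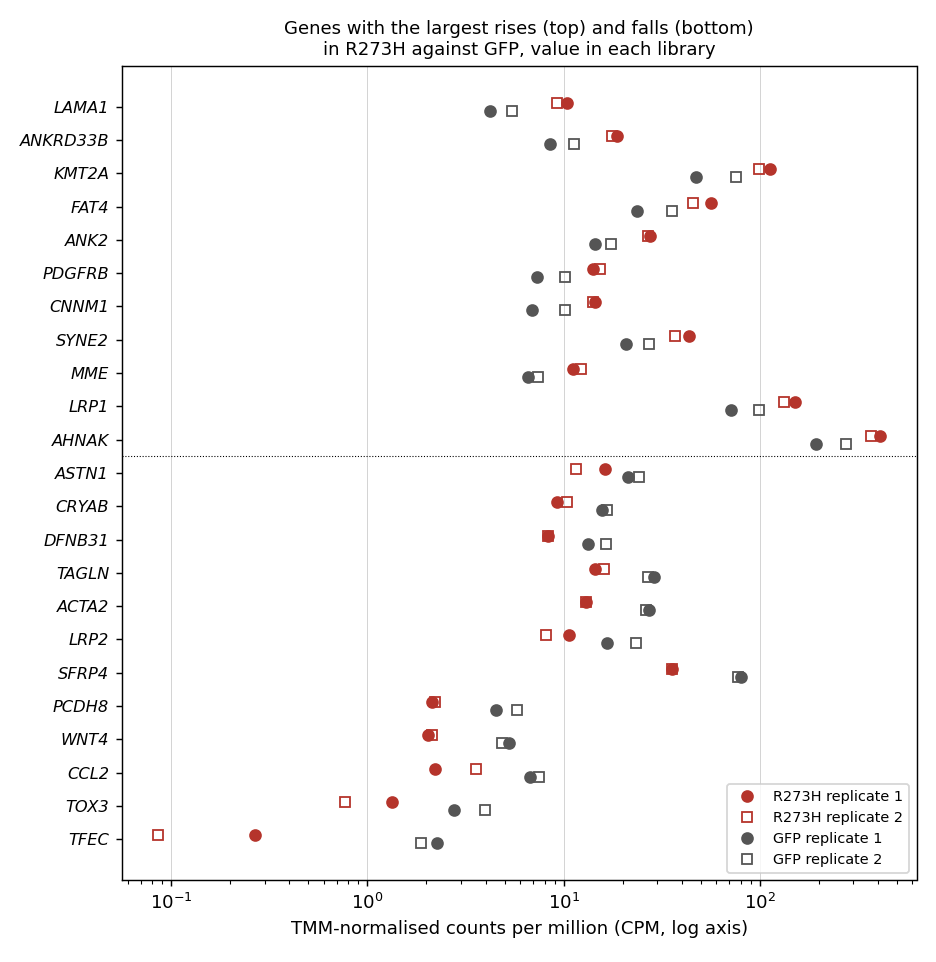
TMM-normalised CPM on a log axis in each R273H library (red) and each GFP library (grey) for genes with the largest rises and falls in R273H, with filled circles for replicate 1 and open squares for replicate 2. The rule that chose these genes required the red points to lie to one side of the grey ones. SFRP4 is at 35.7 CPM in both R273H libraries against 80.1 and 77.7 CPM in GFP. The long genes KMT2A and FAT4 have GFP replicate 1 well below GFP replicate 2.

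The falls with the lowest p were in SFRP4 and ACTA2. SFRP4, a secreted frizzled-related protein that binds Wnt ligands, had 35.7 and 35.7 CPM in R273H, against 80.1 and 77.7 CPM in GFP. The R273H libraries were nearly equal and lay far below both GFP libraries. Its log2 fold change was -1.15 ± 0.08 (SE, n = 2 libraries per group, edgeR adjusted p = 8.3e-07), and -1.12 against GFP replicate 2 alone. SFRP4 was the 1 gene called among 9 tested secreted Wnt antagonists. The median of that list was -0.01, and the other members, which include its relative FRZB and 3 DKK genes, lay between -0.25 and 0.22.

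ACTA2, smooth muscle alpha-actin, had 13.0 and 13.1 CPM in R273H, against 27.2 and 26.3 CPM in GFP. Its log2 fold change was -1.04 ± 0.10 (SE, edgeR adjusted p = 1.8e-04), and -1.01 against GFP replicate 2 alone. SFRP4 and ACTA2 were called under each of 19 alternative fits, and TAGLN under all but the one without R273H replicate 1. TAGLN, which encodes the actin-binding protein transgelin, had 14.4 and 16.1 CPM in R273H, against 28.9 and 27.1 CPM in GFP, a log2 fold change of -0.88 ± 0.12 (SE; -0.83 against GFP replicate 2 alone). The groups of both genes were well apart. MYL9, a regulatory myosin light chain, had 25.7 and 25.02 CPM in R273H, against 37.7 and 31.5 CPM in GFP. It was called against both GFP libraries (-0.45 ± 0.10, SE, edgeR adjusted p = 0.042) but not against GFP replicate 2 alone (-0.31, edgeR adjusted p = 0.21).

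These 3 were the genes called lower among 21 tested contractile genes and partners of the transcription factor SRF. None of the 21 was called higher, and 0.25% of all genes were called lower. The median of the list was -0.04, and -0.08 against GFP replicate 2 alone, where 2 were called lower. Smooth muscle myosin MYH11 had 6.40 and 6.92 CPM in R273H and 6.06 and 6.65 CPM in GFP, groups that overlapped. In bulk libraries such as these, fewer cells with a transcript and less of it per cell cannot be told apart. ACTA2 shares exon positions with ACTA2-AS1 on the opposite strand and TAGLN with PCSK7, and whether reads were counted by strand is not given in the sources used here. The same holds for other genes given here that overlap a gene on the opposite strand, among them CRYAB with HSPB2, LRP1 with STAT6, NDUFA4L2 with SHMT2, KRT8 with KRT18, HSPG2 with LDLRAD2 and SLC6A9 with CCDC24. Antisense or unnamed transcripts overlap ANKRD33B, DDIT4, EP300, ID2, IGFBP5, KMT2A, KMT2D, LAMA1, MME, SLC7A11, SLC7A5, SNTB1, SREBF2, THBS1 and WNT4, and a pseudogene overlaps KMT2C. The values of all these genes carry that uncertainty.

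Of 12 tested genes of the BMP response 2 were called lower, beside 0.25% of all genes, and 0 higher, with a median of -0.13. BAMBI, a pseudoreceptor that dampens BMP and TGF-beta signals, had 35.8 and 40.2 CPM in R273H, against 55.1 and 53.8 CPM in GFP (-0.52 ± 0.08, SE, edgeR adjusted p = 0.0051). MSX2, a homeobox gene induced by BMP, had 137 and 139 CPM in R273H, against 180 and 178 CPM in GFP (-0.38 ± 0.06, SE, edgeR adjusted p = 0.0038). In both genes the R273H libraries lay below both GFP libraries, and both were called against GFP replicate 2 alone, at -0.50 and -0.37. The ID genes, the classical targets, were not called, with ID1 at -0.14 ± 0.08 and ID2 at -0.15 ± 0.09 (SE). Against GFP replicate 2 alone ID1 was at -0.01 and ID2 at -0.19.

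Several of the largest falls were in genes of low level. TFEC, a transcription factor of the MITF family, had 4 counts in both R273H libraries together and 39 in both GFP libraries, a ratio of 0.0837 with an exact 95% interval of 0.0217 to 0.232 that covers counting error only. CCL2, a chemokine that attracts monocytes, had 2.22 and 3.59 CPM in R273H, against 6.78 and 7.54 CPM in GFP (-1.29 ± 0.23, SE, edgeR adjusted p = 0.010). WNT4, a secreted Wnt ligand, had 2.04 and 2.13 CPM in R273H, against 5.24 and 4.88 CPM in GFP (-1.27 ± 0.25, SE). In all 3 the groups were clearly separate. TOX3, a nuclear protein with an HMG box, was at -1.67 ± 0.36 and the protocadherin PCDH8 at -1.23 ± 0.27 (SE), also from under 6 CPM. All 5 were called against GFP replicate 2 alone, with CCL2 at -1.37, WNT4 at -1.22, TOX3 at -1.92 and PCDH8 at -1.40.

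Among genes at higher level, CRYAB, a small heat shock protein, had 9.25 and 10.4 CPM in R273H, against 15.6 and 16.6 CPM in GFP (-0.71 ± 0.13, SE, edgeR adjusted p = 0.013). DFNB31, which encodes the scaffold protein whirlin, had 8.36 and 8.37 CPM in R273H, against 13.4 and 16.4 CPM in GFP (-0.83 ± 0.14, SE). The neuronal adhesion gene ASTN1 was at -0.71 ± 0.14 (SE). All 3 were called against GFP replicate 2 alone as well, CRYAB at -0.76, DFNB31 at -0.97 and ASTN1 at -0.81. CRYAB was the 1 called gene of 25 heat shock chaperones, of which 24 had a log2 fold change below 0, with a median of -0.14. Against GFP replicate 2 alone the median of the chaperones was -0.13. With the length offset 8 chaperones were called lower. Of all genes 0.25% were called lower, and 0.969% with the length offset. Over all 13213 tested genes 6561 had a log2 fold change above 0.

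A second pattern was a small rise of genes that the transcription factor ATF4 controls. ATF4 is translated when amino acids run short or the endoplasmic reticulum is stressed, and it activates amino acid transporters, biosynthetic enzymes, tRNA synthetases and stress effectors. Of 50 tested genes in these 4 lists, 13 were called higher and 0 lower, against a background of 0.757% higher. Their median log2 fold change was 0.18, beside -0.0015 for all genes, and 47 of the 50 were above 0. Against GFP replicate 2 alone 27 of the 50 were called higher, beside 1.06% of all genes, with the same median of 0.18. The changes of all 13 were small, the largest being 0.52 on the log2 scale. None was called in the fit to the 4 libraries alone. These lists were chosen with earlier results of these data known, so the shares describe their genes and do not test the lists.

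The transporters had 4 of 8 called higher, with a median of 0.31. SLC7A11, which imports cystine for glutathione synthesis, had 107 and 104 CPM in R273H, against 69.0 and 78.1 CPM in GFP (0.52 ± 0.07, SE, edgeR adjusted p = 0.0031; 0.43 against GFP replicate 2 alone). The cationic amino acid carrier SLC7A1 rose by 0.39 ± 0.08, the glycine transporter SLC6A9 by 0.38 ± 0.07 and SLC7A5, which carries large neutral amino acids, by 0.26 ± 0.06 (log2, SE). Against GFP replicate 2 alone these 3 were called at 0.23, 0.27 and 0.16. SLC3A2, the heavy chain that pairs with SLC7A11 and SLC7A5, was at 0.15 ± 0.05 (SE) and was called against GFP replicate 2 alone only, at 0.18.

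The enzymes of amino acid synthesis and one-carbon metabolism had 5 of 13 called higher, with a median of 0.20. GPT2, the mitochondrial alanine transaminase, had 202 and 209 CPM in R273H, against 158 and 153 CPM in GFP (0.40 ± 0.06, SE, edgeR adjusted p = 0.0031). PCK2, which makes phosphoenolpyruvate in mitochondria, had 171 and 177 CPM in R273H, against 138 and 126 CPM in GFP (0.40 ± 0.07, SE, edgeR adjusted p = 0.0087). In both genes every R273H library was above every GFP library, and against GFP replicate 2 alone they were at 0.43 and 0.47. ALDH1L2, a mitochondrial folate enzyme, rose by 0.44 ± 0.09 and PSAT1, of serine synthesis, by 0.28 ± 0.05 (log2, SE), and against GFP replicate 2 alone by 0.28 and 0.33. Asparagine synthetase, ASNS, had 298 and 308 CPM in R273H, against 264 and 229 CPM in GFP (0.30 ± 0.06, SE; 0.40 against GFP replicate 2 alone). Of 12 tRNA synthetases 0 were called by edgeR, although 8 were higher at an unadjusted p below 0.05, beside 7.55% of all genes, and 5 were called against GFP replicate 2 alone, and their median was 0.14 by both measures.

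Among factors and stress effectors, 4 of 17 were called higher, with a median of 0.16. CHAC1, which degrades glutathione, had 42.2 and 42.4 CPM in R273H, against 29.1 and 29.8 CPM in GFP (0.52 ± 0.08, SE, edgeR adjusted p = 0.0051). DDIT4, an inhibitor of mTORC1, had 641 and 678 CPM in R273H, against 505 and 513 CPM in GFP (0.37 ± 0.05, SE, edgeR adjusted p = 0.0031). The groups of both genes were separate, and against GFP replicate 2 alone the values were 0.50 and 0.36. The pseudokinase TRIB3 rose by 0.32 ± 0.07 (0.29 against GFP replicate 2 alone), and SESN2, a leucine sensor that restrains mTORC1, by 0.43 ± 0.10 (log2, SE). The call of SESN2 did not hold against GFP replicate 2 alone (0.27, edgeR adjusted p = 0.18). The ATF4 transcript itself had 598 and 629 CPM in R273H, against 599 and 503 CPM in GFP, and its log2 fold change of 0.16 ± 0.07 (SE) was not called. The groups overlapped through GFP replicate 1 only, and both R273H libraries lay above GFP replicate 2. DDIT3, or CHOP, was at 0.01 ± 0.13 and PPP1R15A, or GADD34, at -0.21 ± 0.11 (SE).

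**Figure D2:**
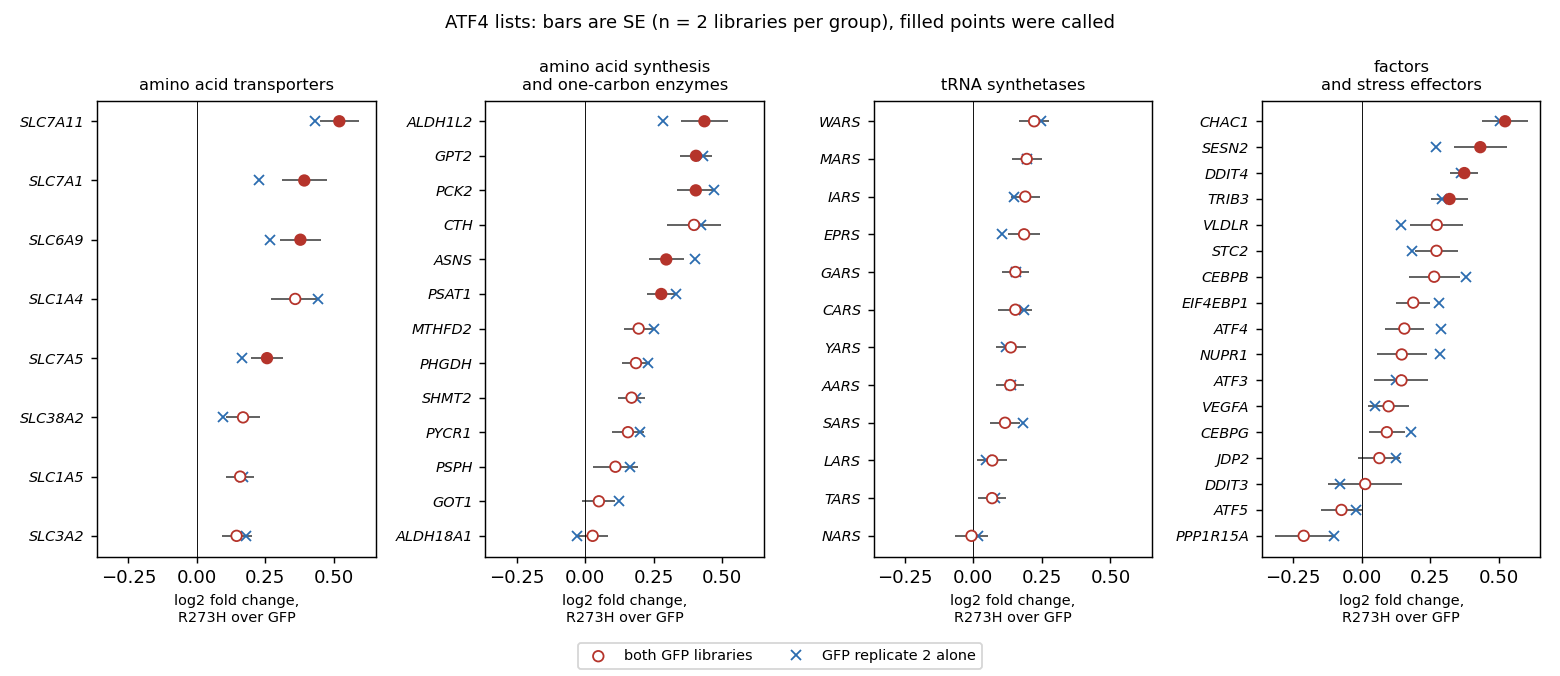
Log2 fold change, R273H over GFP, for each tested gene of the 4 ATF4 lists, with circles and SE bars for both GFP libraries (filled where called) and crosses for GFP replicate 2 alone. The transporters and enzymes lie to the right of 0, up to 0.52 for SLC7A11, the tRNA synthetases lie between -0.01 and 0.22, and DDIT3 and PPP1R15A stand at 0.01 and -0.21 among the effectors.

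The promoters of the 13 called ATF4-list genes were searched for TGATGNAA, the core of the composite element that ATF4 and C/EBP proteins bind, on both strands from 250 bases before to 50 bases after the start site. RefSeq promoters (build GRCh38.p14; the counts were made on hg19) were matched for 10 of the 13 genes, and 3 of the 10, SLC7A1, ASNS and CHAC1, held the motif. Counted by promoter this was 3 of 13, since TRIB3 has 3 listed starts and ASNS has 2, of which 1 held no match, against 3.62% of all 35116 promoters of that length. For the contractile genes, the strict form of the CArG box that SRF binds was in 0 of 2 promoters of the 1 matched gene, ACTA2. The share over all promoters was 1.29%. This search took exact matches to CCWWWWWWGG alone, with W for A or T. Variants with another base in the core were not counted, so SRF sites of that kind may be present. A match describes the letters of this window, not a bound site. In SLC7A1 (chromosome 13) the match starts at base 258 of the window, past the start site. The 250 bases before the start sites of ASNS (chr7:97872409-97872658, minus strand) and CHAC1 (chr15:40953221-40953470, plus strand) are shown because they hold the motif upstream of the start, in capitals, in CHAC1 on the opposite strand.
ASNS: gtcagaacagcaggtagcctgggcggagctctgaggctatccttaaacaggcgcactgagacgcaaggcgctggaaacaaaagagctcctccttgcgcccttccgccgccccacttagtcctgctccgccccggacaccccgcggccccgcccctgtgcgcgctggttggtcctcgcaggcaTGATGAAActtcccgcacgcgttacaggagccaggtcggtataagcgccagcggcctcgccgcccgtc
CHAC1: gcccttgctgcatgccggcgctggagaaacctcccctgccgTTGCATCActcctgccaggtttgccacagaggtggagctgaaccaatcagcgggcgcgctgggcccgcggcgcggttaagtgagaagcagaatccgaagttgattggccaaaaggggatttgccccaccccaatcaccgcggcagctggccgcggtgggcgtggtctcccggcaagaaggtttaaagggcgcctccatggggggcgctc

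Most genes called higher had long transcripts. Of the 100, 64 had a transcript of 8000 nt or more in GENCODE 29, and 5.8% of the 1103 tested genes of that length were called higher. In all 64, GFP replicate 1 was further from the R273H libraries than GFP replicate 2. Their median log2 fold change was 0.56 against both GFP libraries and 0.36 against GFP replicate 2 alone, where 53 of the 64 were called. With a length offset and without GFP replicate 1 the median was 0.29 and 45 were called. The 36 shorter genes had medians of 0.40, 0.35 and 0.35, with 29 and 31 called, and the 33 genes called lower had -0.56, -0.59 and -0.59, with 27 and 29 called.

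Over all 924 well-counted genes of 8000 nt or more, the median log2 fold change was 0.14 against both GFP libraries and 0.04 against GFP replicate 2 alone. The median deviation of these genes from their mean over 8 libraries was 0.04 and -0.03 in the R273H libraries and -0.27 and -0.03 in the GFP libraries. GFP replicate 1 thus stood apart, and the R273H libraries lay near GFP replicate 2. The values given for long genes are best read against GFP replicate 2.

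**Figure D3:**
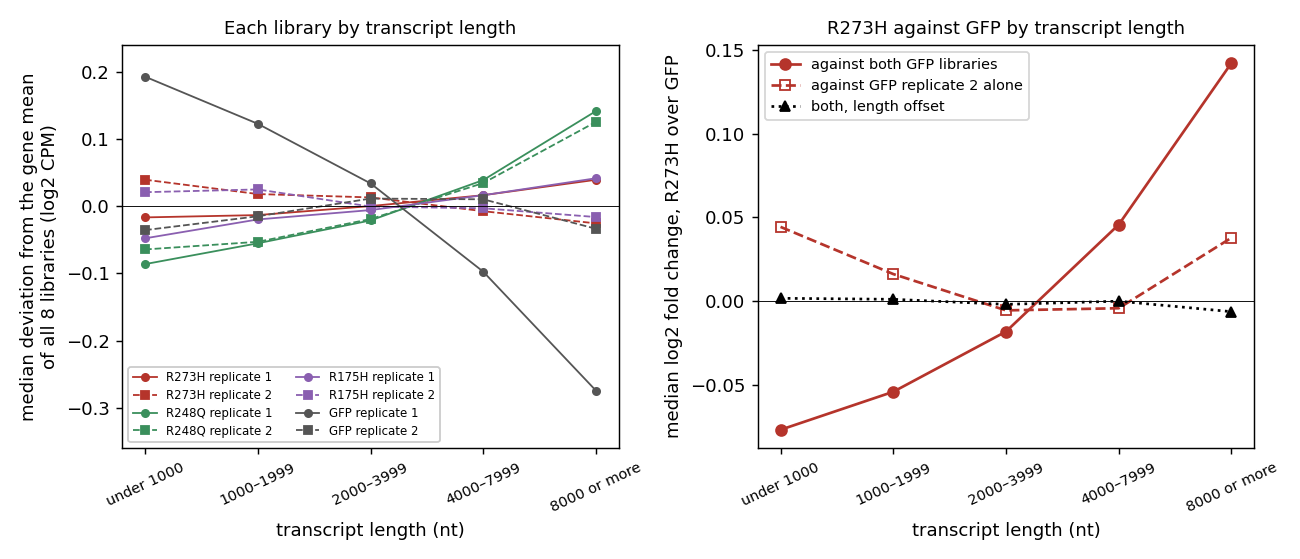
Left, the median deviation (log2 CPM) of each library from the mean of all 8 libraries, by transcript length class in nt, over well-counted genes; right, the median log2 fold change of R273H over GFP in the same classes. GFP replicate 1 falls to -0.27 in the longest class while both R273H libraries stay within 0.04 of 0, and the R273H rise of 0.14 in that class is 0.04 against GFP replicate 2 alone.

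**Figure D4:**
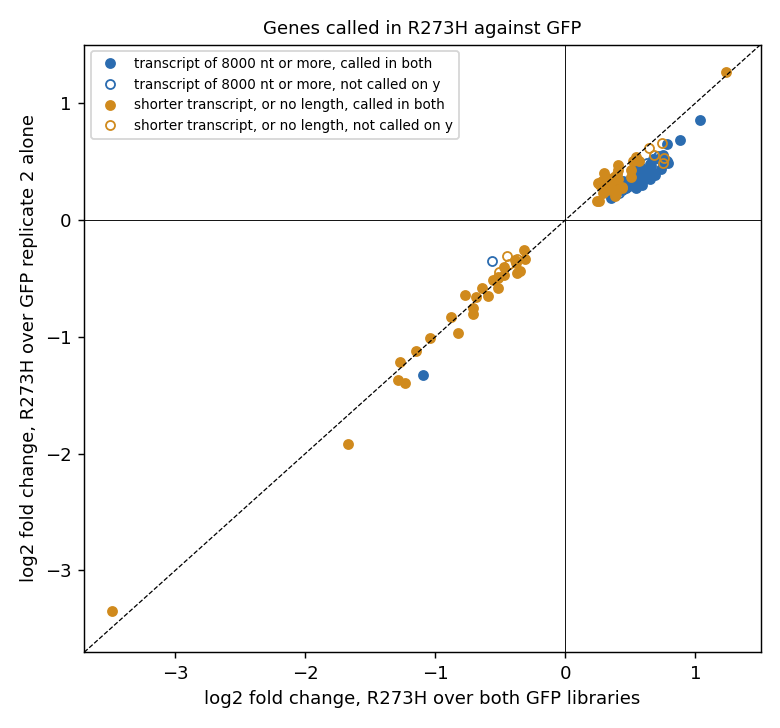
Each gene called in R273H against GFP, with its log2 fold change over both GFP libraries on the x axis and over GFP replicate 2 alone on the y axis, blue for transcripts of 8000 nt or more, orange for others, open where not called on the y axis. All points keep their sign, which was fixed in advance because both R273H libraries of every called gene lie outside the GFP range. The long genes called higher lie below the dashed line of equality, with medians of 0.56 and 0.36.

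The largest fold change given here among the rises was that of a laminin. LAMA1, the laminin alpha-1 chain, had 10.4 and 9.31 CPM in R273H, against 4.21 and 5.43 CPM in GFP. Both R273H libraries were well above both GFP libraries. Its log2 fold change was 1.03 ± 0.18 (SE, edgeR adjusted p = 0.010), and 0.86 against GFP replicate 2 alone (edgeR adjusted p = 0.028). Of 21 laminins and matrix glycoproteins 6 were called higher and 0 lower, with a median of 0.18, and 0.11 against GFP replicate 2 alone. The share called higher was 0.757% over all genes and 5.8% over those of 8000 nt or more, which include LAMA1 and HSPG2. POSTN, the matricellular protein periostin with a transcript of 3373 nt, had 291 and 292 CPM in R273H, against 221 and 222 CPM in GFP (0.40 ± 0.05, SE, edgeR adjusted p = 0.0028; 0.39 against GFP replicate 2 alone). HSPG2, or perlecan, had 116 and 110 CPM in R273H, against 65.3 and 88.5 CPM in GFP, and rose by 0.56 ± 0.10 (log2, SE; 0.35 against GFP replicate 2 alone).

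COL1A1, the main chain of type I collagen, had 1863 and 1842 CPM in R273H, against 1405 and 1506 CPM in GFP (0.35 ± 0.05, SE, edgeR adjusted p = 0.0038; 0.30 against GFP replicate 2 alone). It was the 1 called gene of 15 tested collagens, whose median was 0.08, and -0.02 against GFP replicate 2 alone. COL3A1, the most abundant fibroblast-type transcript above, was at 0.04 ± 0.05 (SE). PDGFRB, the PDGF-B receptor of mesenchymal cells, had 14.1 and 15.3 CPM in R273H, against 7.30 and 10.2 CPM in GFP (0.76 ± 0.17, SE, edgeR adjusted p = 0.036). Its call did not hold against GFP replicate 2 alone (0.53, edgeR adjusted p = 0.14), and it was the 1 called gene of 16 EMT regulators and mesenchymal markers, whose median was 0.01.

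Linkers of membrane and nucleus to the cytoskeleton had 7 of 15 called higher and 0 lower, with a median of 0.48, and 0.29 against GFP replicate 2 alone. Over all genes 0.757% were called higher, and 5.8% of those of 8000 nt or more. SYNE2, ANK2, FAT4, FAT1, CELSR1 and AHNAK all have transcripts of that length. SYNE2, a nesprin of the nuclear envelope, had 43.8 and 36.9 CPM in R273H, against 20.8 and 27.4 CPM in GFP (0.75 ± 0.12, SE, edgeR adjusted p = 0.0050; 0.56 against GFP replicate 2 alone). The ankyrin ANK2 had 27.5 and 27.1 CPM in R273H, against 14.4 and 17.4 CPM in GFP (0.78 ± 0.11, SE, edgeR adjusted p = 0.0031; 0.65 against GFP replicate 2 alone). In both, all R273H values lay above all GFP values. Of 7 giant cadherins, FAT4 (0.78 ± 0.14), FAT1 (0.54 ± 0.12) and CELSR1 (0.50 ± 0.10, SE) were called higher, at 0.51, 0.27 and 0.31 against GFP replicate 2 alone. AHNAK, a giant scaffold protein, had 413 and 372 CPM in R273H, against 193 and 277 CPM in GFP (0.74 ± 0.11, SE; 0.50 against GFP replicate 2 alone).

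Of 14 histone lysine methyltransferases and acetyltransferases 5 were called higher and 0 lower, with a median of 0.30, and 0.11 against GFP replicate 2 alone. Beside this, 0.757% of all genes and 5.8% of those of 8000 nt or more were called higher. KMT2A, KMT2D, KMT2C and EP300 are of that length. KMT2A, which methylates histone H3 at promoters, had 112 and 99.8 CPM in R273H, against 47.3 and 75.8 CPM in GFP. The groups did not overlap, but the GFP libraries differed by more than the R273H libraries did. Its log2 fold change was 0.79 ± 0.13 (SE, edgeR adjusted p = 0.0087), and 0.48 against GFP replicate 2 alone. The relatives KMT2D and KMT2C were at 0.65 ± 0.12 and 0.54 ± 0.11, and the acetyltransferase EP300 at 0.57 ± 0.11 (SE), and against GFP replicate 2 alone at 0.40, 0.31 and 0.34. ANKRD33B, an ankyrin repeat gene with 18.8 and 17.6 CPM in R273H, against 8.53 and 11.3 CPM in GFP, was at 0.88 ± 0.14 (SE; 0.69 against GFP replicate 2 alone).

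Among IGF genes, receptors rose and binding proteins fell in the 4 called cases. The receptors IGF1R and IGF2R have long transcripts, of 12235 and 14044 nt. With the length offset and without GFP replicate 1 they were at 0.33 and 0.16, and IGFBP3 and IGFBP5 at -0.59 and -0.44. IGF1R, the receptor for insulin-like growth factors, had 45.2 and 44.4 CPM in R273H, against 27.7 and 34.3 CPM in GFP (0.54 ± 0.10, SE; 0.39 against GFP replicate 2 alone), while 2 secreted binding proteins fell. IGFBP3 had 32.4 and 29.1 CPM in R273H, against 42.0 and 46.1 CPM in GFP (-0.52 ± 0.09, SE, edgeR adjusted p = 0.010), and IGFBP5 had 141 and 143 CPM in R273H, against 169 and 193 CPM in GFP (-0.35 ± 0.07, SE, edgeR adjusted p = 0.017). Neither gene's groups overlapped, and both calls held against GFP replicate 2 alone, at -0.59 and -0.44. IGF2R, which clears IGF2, rose by 0.41 ± 0.09 (SE), a call that did not hold against GFP replicate 2 alone. With it, 2 of 11 genes of this list were called higher and 2 lower, beside 0.757% and 0.25% of all genes. At an unadjusted edgeR p below 0.05, 4 of the 11 were higher and 4 lower, beside 7.55% and 5.18% of all genes.

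LRP1, an endocytic receptor of many ligands, had 151 and 134 CPM in R273H, against 71.4 and 99.2 CPM in GFP (0.74 ± 0.11, SE; 0.52 against GFP replicate 2 alone). LRP2, or megalin, its relative of epithelia with a transcript of 15808 nt beside 14897 nt for LRP1, had 10.7 and 8.11 CPM in R273H, against 16.7 and 23.5 CPM in GFP. It fell by 1.09 on the log2 scale (SE 0.18, edgeR adjusted p = 0.0051), and by 1.33 against GFP replicate 2 alone. The 2 receptors thus changed in opposite directions, and the part of transcript length in either change was not tested. Of 14 tested genes of the LDL receptor family 2 were called higher and 1 lower, beside 0.757% and 0.25% of all genes. MME, the cell-surface peptidase neprilysin, and CNNM1, a magnesium transport-related protein, were at 0.74 ± 0.15 and 0.75 ± 0.17 (SE), and neither was called against GFP replicate 2 alone (0.66 and 0.49).

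Of 34 tested targets that wild-type p53 activates 1 was called higher, SESN2, which is in an ATF4 list too, and 0 lower. Over all genes 0.757% were called higher and 0.25% lower, and 1 call is too few to compare with these shares. The list median was -0.08 (-0.02 against GFP replicate 2 alone). Among the textbook targets, the cell cycle inhibitor CDKN1A had 11.1 and 12.04 CPM in R273H and 10.4 and 12.6 CPM in GFP. MDM2, the ubiquitin ligase of p53, had 22.0 and 19.9 CPM in R273H and 24.0 and 22.1 CPM in GFP. The R273H values of CDKN1A fell within the GFP range, and those of MDM2 were slightly below it without a call (-0.14 ± 0.11, SE).

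Of 11 genes of fatty acid synthesis 2 were called higher, SCD, the stearoyl-CoA desaturase (0.24 ± 0.05), and FASN, the fatty acid synthase (0.35 ± 0.08, SE), at 0.16 and 0.19 against GFP replicate 2 alone. All 11 were above 0, with a median of 0.18, and 0.13 against GFP replicate 2 alone. Of all genes 0.757% were called higher. Of 25 genes of sterol synthesis 0 were called by edgeR, with a median of 0.11, although 9 were higher at an unadjusted p below 0.05, beside 7.55% of all genes, and 5 were called higher against GFP replicate 2 alone, among them DHCR7 (0.21) and SREBF2 (0.17). No member was called in either direction among 34 hypoxia and glycolysis genes (median 0.04), 31 proteasome subunits (-0.09), 40 S phase genes (-0.05), 32 G2 and mitosis genes (0.00), 17 genes of the TGF-beta response (-0.07), 16 of the interferon response (-0.07), 40 ribosomal proteins (-0.02), 40 genes of oxidative phosphorylation (-0.08) and 14 of the BCL2 family (-0.01). At an unadjusted p below 0.05, 7.55% of all genes were higher and 5.18% lower. By the same measure 4 hypoxia genes were higher and 2 lower, 4 G2 and mitosis genes higher and 3 lower, and 1 S phase gene higher and 2 lower. Of the proteasome 6 genes were lower, of oxidative phosphorylation 3, of the interferon response 3, of the BCL2 family 2, and of the TGF-beta response and ribosomal proteins 0, with 0 higher in each. Against GFP replicate 2 alone the median was -0.01 for the proteasome, 0.04 for oxidative phosphorylation and 0.10 for ribosomal proteins, of which 2 were called higher there, as was 1 G2 and mitosis gene.

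R273H was then set against R248Q, the other contact mutant, a contrast without GFP libraries. By edgeR 1 gene was called higher in R273H (0.00757%) and 19 lower (0.144%), together 0.151% of those tested. All 19 had transcripts of 8000 nt or more, and their median length was 16115 nt. Of these 19, 15 were also called higher in R273H than in GFP. The R248Q libraries had the highest deviation in the longest class, 0.14 and 0.13, beside 0.04 and -0.03 in R273H, so a length trend moves with this result as well, and its part was not tested. In a fit to these 4 libraries alone 324 genes (2.45%) were called higher and 486 (3.68%) lower. With 1 GFP library left out at a time, both counts rose above those of the fit to all 8 libraries. With 1 library of R175H, R273H or R248Q left out, both counts fell.

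SYNE2 had 43.8 and 36.9 CPM in R273H, against 83.3 and 78.0 CPM in R248Q (-0.999 ± 0.10, SE, edgeR adjusted p = 2.9e-04). FBN2, a fibrillin of elastic fibres, had 51.5 and 50.3 CPM in R273H, against 80.6 and 82.3 CPM in R248Q (-0.68 ± 0.08, SE, edgeR adjusted p = 0.0038). The groups were far apart in both. AHNAK (-0.62 ± 0.10), FAT1 (-0.66 ± 0.12) and UBR4, a ubiquitin ligase (-0.67 ± 0.10, SE), were also lower in R273H than in R248Q. SNTB1, a syntrophin of the dystrophin complex with a transcript of 5164 nt, was the 1 gene called higher, with 28.0 and 25.6 CPM in R273H, against 17.8 and 17.6 CPM in R248Q (0.60 ± 0.09, SE, edgeR adjusted p = 0.019).

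Several genes that fell against GFP were not called between the contact mutants. SFRP4 differed by -0.00 ± 0.08, ACTA2 by 0.16 ± 0.12 and TAGLN by 0.18 ± 0.14 (log2, R273H minus R248Q, SE), none of them called. None of the 50 ATF4-list genes was called in either direction between R273H and R248Q by edgeR, with 17 higher and 1 lower at an unadjusted p below 0.05, beside 2.83% and 5.23% of all genes. CHAC1 (0.36 ± 0.08, edgeR adjusted p = 0.10) and TRIB3 (0.31 ± 0.07, SE, edgeR adjusted p = 0.099) were higher in both R273H libraries than in both R248Q libraries without passing the threshold.

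Between R273H and R175H, 186 genes were called higher in R273H (1.41%) and 293 lower (2.22%), together 3.63% of those tested. Genes that respond to low oxygen were lower in R273H: 29 of 34 were called lower and 0 higher, with a median log2 difference of -0.69, beside 2.22% lower over all genes. CA9, a carbonic anhydrase of the cell surface, had 9.07 and 11.9 CPM in R273H, against 40.0 and 46.3 CPM in R175H (-2.05 ± 0.13, SE, edgeR adjusted p = 8.7e-08). In GFP it had 13.1 and 11.2 CPM, a range that the R273H values overlap. NDRG1, a stress-induced differentiation gene, had 11.6 and 13.1 CPM in R273H, against 44.6 and 45.3 CPM in R175H (-1.86 ± 0.11, SE), and NDUFA4L2, a mitochondrial protein, had 42.9 and 43.6 CPM in R273H, against 158 and 159 CPM in R175H (-1.87 ± 0.08, SE).

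The enzymes that modify and crosslink collagen were lower too, with 6 of 9 called lower, 0 higher and a median of -0.52. Over all genes 2.22% were called lower and 1.41% higher. PLOD2, a lysyl hydroxylase, had 80.6 and 74.5 CPM in R273H, against 119 and 116 CPM in R175H (-0.60 ± 0.07, SE). Of the 50 ATF4-list genes 13 were called lower in R273H than in R175H and 0 higher, with DDIT4 at -1.07 ± 0.05 and TRIB3 at -0.45 ± 0.07 (SE). The transporters (0 of 8) and tRNA synthetases (0 of 12) had no call by edgeR, with 5 and 2 members lower at an unadjusted p below 0.05, beside 9.35% of all genes, and 7 of 17 effectors and 6 of 13 enzymes were lower. SLC7A11 differed by -0.23 ± 0.07 (SE, edgeR adjusted p = 0.086).

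Of 25 heat shock chaperones 10 were called higher in R273H than in R175H and 0 lower, with a median of 0.25. Over all genes 1.41% were called higher and 2.22% lower. TXNIP, an alpha-arrestin that restrains glucose uptake, had 22.8 and 20.1 CPM in R273H, against 6.20 and 6.95 CPM in R175H (1.69 ± 0.14, SE, edgeR adjusted p = 1.9e-06). Against GFP the same gene was lower in R273H (-0.56 ± 0.10, SE; -0.51 against GFP replicate 2 alone), with 32.6 and 30.6 CPM in the GFP libraries. SFRP4 was lower in R273H than in R175H (-0.54 ± 0.08, SE, edgeR adjusted p = 9.0e-04), at 35.7 and 35.7 CPM against 53.1 and 50.8 CPM, whereas for ACTA2 the difference of -0.42 ± 0.12 was not called (edgeR adjusted p = 0.061). POSTN (0.48 ± 0.05) and COL1A1 (0.47 ± 0.05, SE) were higher in R273H. Of the remaining genes with the largest differences, GRIK3 (1.26 ± 0.22), KRT8 (2.25 ± 0.55), MFSD2A (0.91 ± 0.17) and THBS1 (0.96 ± 0.21) were higher in R273H and BEST4 (-1.98 ± 0.45) and RIMKLA (-2.02 ± 0.32, SE) lower, all from under 10 CPM. In a fit to these 4 libraries alone 618 genes (4.68%) were called higher and 670 (5.07%) lower. With 1 GFP library left out at a time, both counts were higher than in the fit to all 8 libraries. They were lower with 1 library of R175H, R248Q or R273H left out.

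**Figure D5:**
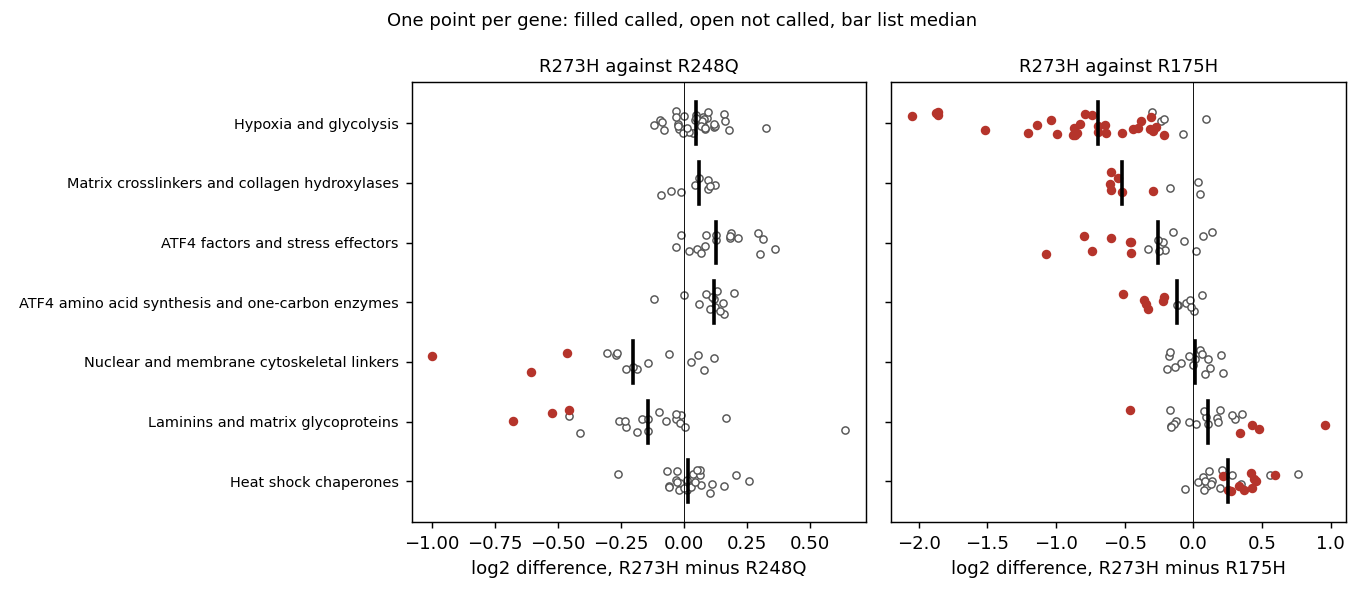
Log2 difference of R273H minus R248Q (left) and R273H minus R175H (right) for each tested gene of 7 lists, 1 point per gene, filled where called, with a bar at the list median. The hypoxia list lies at 0.05 against R248Q and at -0.69 against R175H, and the linker list has 3 genes called lower than in R248Q and 0 called in either direction against R175H.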

How the data were processed

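Per the labels' protocols, libraries were made with a Kapa mRNA kit from total RNA of HGC27 cells. The submitters' processing notes name bcl2fastq, STAR 2.5 and hg19. How reads were assigned to genes is not given in the sources used here. The authors deposited whole-number read counts for 25435 symbols, and 6937 of these had no count in any library.

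The fit used edgeR 4.0.16 in R 4.3.3: filterByExpr (minimum count 10, minimum total 15), TMM scaling and a quasi-likelihood fit to all 8 libraries with 1 mean for each group (4 residual degrees of freedom, common biological coefficient of variation 4.51%). Benjamini-Hochberg adjustment ran over 13213 genes. Each SE is the size of the log2 fold change over the root of its F statistic. CPM values are TMM-normalised, apart from those of the markers and the floor. Alternatives were DESeq2 1.42.0, limma 3.58.1 (voom), other scalings and filters, a replicate block, a length offset and leaving out each library. Transcript lengths (GENCODE 29) matched 97.2% of tested genes by symbol, and the offset was a loess curve (span 0.3) per library against log2 length, drawn from genes above a mean log2 CPM of 3. The steps were tested on simulated data.

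Comparisons and gene lists were chosen with earlier results of these data known. The rule named called genes whose libraries did not overlap and whose mean was at least 1 CPM: the 12 largest rises and 12 largest falls against GFP and 5 of each against either mutant. It added up to 4 called members per list, or up to 2 where none was called, by lowest p. Antisense, readthrough and placeholder names were passed over. ASNS and list members given without a call, CDKN1A and MDM2 among them, were chosen after their values were seen. Results for 1 gene that the rule also takes are not reported here.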

Additional observations from a re-analysis of the deposited data

How the results depend on the processing

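Against GFP, counts of genes called higher (100) and lower (33) were 396 and 107 with no filter beyond 1 count, 1 and 5 in the fit to the 4 libraries alone and 201 and 128 with the length offset. They were 183 and 93 with the offset and without GFP replicate 1, and DESeq2 called 20 lower. Leaving out 1 library gave 1 to 1328 higher and 6 to 925 lower. Against R248Q (1 and 19), the counts were 20 and 156 with no filter, 324 and 486 in 4 libraries, 12 and 29 with the offset and 179 and 129 with the offset and without GFP replicate 1. DESeq2 called 0 higher, where edgeR and limma-voom called 1 and edgeR had 374 higher at an unadjusted p below 0.05. Leaving out 1 library gave 0 to 193 higher and 0 to 380 lower. Against R175H (186 and 293), they were 320 higher with no filter, 104 and 181 by DESeq2, 618 and 670 in 4 libraries, 588 and 552 with the offset, 1039 and 925 with the offset and without GFP replicate 1, and 23 to 778 higher and 91 to 855 lower with 1 library left out. The causes were not tested.

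Replicate deviations of GFP and R273H had a correlation of -0.24, and with 2 numbers the labels do not pair the libraries. With the replicate block the counts were 38 and 20 against GFP, 0 and 4 against R248Q and 106 higher against R175H (212 lower). With the numbers crossed, a block chosen after seeing the data, they were 293 and 80, 8 and 104, and 305 (424 lower).

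Of 59 named genes called against GFP, 34 kept the call with the replicate block, 41 with DESeq2 and 3 in the fit to 4 libraries. Most kept it against GFP replicate 2 alone, and most lost it when 1 R273H library was left out. No named gene reversed. For fits that leave out a library this was fixed by the choice of genes, since both R273H libraries of every called gene lay outside the GFP range.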

Other observations

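Genes outside the lists and the naming rule, chosen after their values were seen, also differed between R273H and GFP. CALB2, which encodes the calcium-binding protein calretinin, had 78.5 and 84.4 CPM in R273H, against 131 and 122 CPM in GFP (log2 fold change -0.64, edgeR adjusted p = 3.8e-04, -0.59 against GFP replicate 2 alone). CHODL, a membrane lectin, had 194 and 195 CPM in R273H, against 269 and 270 CPM in GFP (-0.47, edgeR adjusted p = 4.5e-04, -0.47 against GFP replicate 2 alone). Both genes had R273H libraries well below the GFP libraries. The neural adhesion genes L1CAM (-0.60) and CNTN1 (-0.37), the apolipoprotein APOE (-0.47) and the lysosomal glycoprotein GPNMB (-0.39) were called lower as well, and all 4 were called against GFP replicate 2 alone.

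Shorter genes called higher outside the lists included MFAP4, a microfibril-associated protein with 115 and 123 CPM in R273H, against 81.3 and 82.2 CPM in GFP (0.54, edgeR adjusted p = 5.9e-04, 0.53 against GFP replicate 2 alone). ASS1, argininosuccinate synthetase of arginine synthesis, had 638 and 655 CPM in R273H, against 533 and 504 CPM in GFP (0.32, edgeR adjusted p = 0.0073, 0.36 against GFP replicate 2 alone). In both, every R273H library exceeded every GFP library. INHBE, an inhibin beta chain (0.57), ADM2, a peptide hormone (0.40), and the guidance ligand SLIT2 (0.50) were also called higher, and each held against GFP replicate 2 alone.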
